A study of Mus musculus with 15 samples.

Results

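Siglecs are sialic acid-binding receptors of the immunoglobulin family that sit on immune cells and read the sugars on their own and neighboring cells. The genes described are the 6 listed Siglec genes of the mouse, Siglec1, Siglece, Siglecg, Siglech, Cd33, and Cd22, matched by symbol to the gene identifiers of the deposited counts. All 6 were found among the 19456 identifiers, and all 6 were among the 15802 genes that passed the filter on low counts. RNA sequencing was done on 15 libraries of cells sorted by flow cytometry from wild-type adult male C57BL/6 mice: 3 of Ly6Chi blood monocytes and 4 of each of 3 macrophage subsets of the small intestine, named by the surface proteins Tim-4 and CD4: Tim-4-CD4- (neither), Tim-4-CD4+ (CD4 alone), and Tim-4+CD4+ (both). Values for the 3 subsets are given in this order. No treatment or transgene separated the groups. Cells of 3 mice were pooled for each library (4 mice for monocyte replicate 2), so the spread between libraries is that between pools and not between single mice. The comparisons ask how the Siglec transcripts of gut macrophages differ from those of the blood monocytes, and how the subsets differ from each other. In the authors' tracing of cell origin, Tim-4-CD4- macrophages were replaced from monocytes fast, Tim-4-CD4+ slowly, and Tim-4+CD4+ rarely. Words such as rose, fell, and steps therefore compare populations and do not describe a course of differentiation. In bulk samples, more cells with a transcript and more transcript per cell cannot be told apart.

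Most Siglecs of myeloid cells carry immunoreceptor tyrosine-based inhibitory motifs that recruit the phosphatases SHP-1 and SHP-2, so that binding of sialic acid on self tissue dampens activation. Others lack these motifs: Siglec-1 (sialoadhesin, CD169) is a long adhesion and uptake receptor of macrophages, and Siglec-H signals through the adaptor DAP12. Cd22 and Siglecg are best known from B cells, Siglech from plasmacytoid dendritic cells and microglia, and Siglece and Cd33 from neutrophils, monocytes, and macrophages.

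The libraries held from 39388763 to 151510641 counts on genes. Levels are given as CPM, counts scaled to a library of 1000000, differences as log2 values, and the error of a mean as the SD over libraries. The populations carried the markers of their labels: Ly6c2 averaged 1092 CPM in monocytes and at most 1.72 CPM in a macrophage subset, whereas C1qa, a complement gene of tissue macrophages, averaged 2.31 CPM in monocytes and 3462 to 4069 CPM in the subsets. Timd4, which encodes Tim-4, measured 336 to 390 CPM in Tim-4+CD4+ libraries and at most 4.47 CPM in any other, and Cd4 measured 484 to 924 CPM in the libraries of the CD4+ subsets, 14.5 to 39.2 CPM in Tim-4-CD4- libraries, and at most 0.260 CPM in monocytes. Of the Tim-4+CD4+ libraries, replicate 1 was the least like the others. Its log2 CPM correlated with those of the other 3 at Pearson's r of 0.969 to 0.974, against 0.980 to 0.983 among those 3 (across genes, which are not independent replicates). Pairs of libraries reached similar values in the other subsets, 0.973 to 0.979 in Tim-4-CD4- and 0.971 to 0.983 in Tim-4-CD4+. Values without Tim-4+CD4+ replicate 1 are given beside a number of the differences between subsets. Genes of other cell types also moved with the groups: 5 plasma cell genes summed to 1.70 to 3.11 CPM in monocyte and 202 to 401 CPM in macrophage libraries, and 6 T cell genes to 0.126 to 0.446 CPM in monocyte and 2.46 to 11.3 CPM in macrophage libraries. Relative to Tim-4-CD4- cells, 3 of the T cell genes were called higher in the cells with CD4 alone and 2 in those with both proteins. Of all genes, 10.1% and 23.1% were called in these comparisons. The part of genes of other cell types in the Siglec differences was not tested.

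On the genome (GRCm38, GENCODE M21), 5 of the 6 genes lie on chromosome 7. Siglecg (ENSMUSG00000030468.12, chr7:43408204-43418358, plus strand), Cd33 (ENSMUSG00000004609.11, chr7:43524216-43544428, minus strand), and Siglece (ENSMUSG00000030474.9, chr7:43651070-43660161, minus strand) follow each other at distances of 105.9 and 106.6 kb. Cd22 (ENSMUSG00000030577.13, chr7:30865402-30880342, minus strand) and Siglech (ENSMUSG00000051504.18, chr7:55768178-55778925, plus strand) lie farther away on either side, and Siglec1 (ENSMUSG00000027322.11, chr2:131069220-131086765, minus strand) is on chromosome 2. Siglecf, a family member outside the 6, lies nearer to Siglecg, 48.7 kb away on the side opposite Cd33. Siglecg was low and fell in the CD4+ subsets, whereas Siglecf, Cd33, and Siglece were higher than in monocytes in every subset.

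The 250 bases before the RefSeq start of Siglece and of Siglech (build GRCm38.p6) are shown because these genes had different patterns among the macrophage subsets, the first at like means and the second highest in Tim-4+CD4+ cells. The last 6 bases of the Siglech window lie within its first exon as GENCODE M21 places it. The windows of Cd22, Cd33, and Siglecg hold 35 or more bases of annotated exons and are not shown. Capitals mark GAGGAA or its reverse complement TTCCTC, a purine-rich core of the kind bound by the myeloid factor PU.1; both strands were searched, and matches could not overlap.
Siglece, chr7:43660162-43660411, minus strand: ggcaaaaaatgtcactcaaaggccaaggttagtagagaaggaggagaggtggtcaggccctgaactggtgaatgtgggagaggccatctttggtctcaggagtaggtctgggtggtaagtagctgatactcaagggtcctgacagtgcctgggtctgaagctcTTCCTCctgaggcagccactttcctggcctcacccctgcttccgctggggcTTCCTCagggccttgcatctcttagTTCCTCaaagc
Siglech, chr7:55767934-55768183, plus strand: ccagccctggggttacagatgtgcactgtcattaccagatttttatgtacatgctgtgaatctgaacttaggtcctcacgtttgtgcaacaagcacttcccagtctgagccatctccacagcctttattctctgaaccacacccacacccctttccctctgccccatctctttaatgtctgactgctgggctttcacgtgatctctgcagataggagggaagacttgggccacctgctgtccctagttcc
The Siglece window held 3 matches, the nearest starting 11 bases before the start of the gene, and the Siglech window held none. Among all 32851 windows of this length, 23.3% held at least 1 match. Of 10 windows of 7 Siglec-family genes, 6 did, and Siglec1 had no window. Windows of the same gene can overlap and are not independent. The same Mag match lay in more than 1 window, and of the overlapping Siglecg windows only 1 held matches. The window of Siglecf, not shown, held 1 match, starting 65 bases before the start. Siglecf, like Siglech, had its highest mean in Tim-4+CD4+ cells. A link between matches and levels was not tested. Sequences are written on the strand of the gene. Letters and counts are a description of these windows and say nothing of binding.

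Against monocytes, the gut macrophage subsets had higher levels of 5 of the 6 Siglec genes, and the differences were largest for Cd22 and Siglech. Called genes (edgeR adjusted p below 0.05) were 5 of 6 in Tim-4-CD4- cells, where 65.4% of all genes tested were called. They were 6 of 6 in Tim-4-CD4+ cells (69.8% of all genes) and 6 of 6 in Tim-4+CD4+ cells (70.9% of all genes). In each comparison 5 of the 6 were called higher, as were 37.3%, 39.1%, and 39.5% of all genes. Libraries did not overlap for 5, 6, and 6 of the 6, as for 67.6%, 70.1%, and 68.7% of all genes. The 3 comparisons share the same monocyte libraries.

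**Figure D1:**
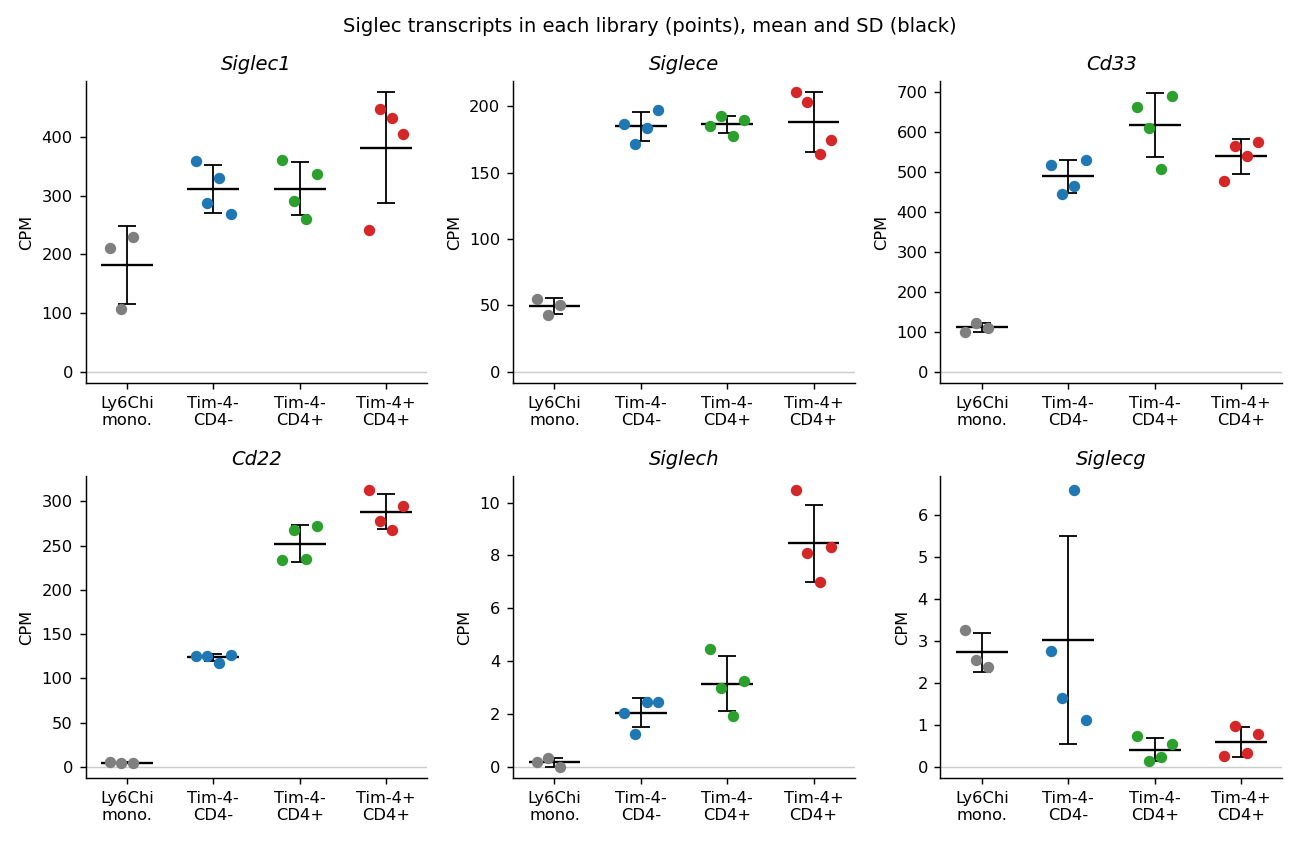
Levels of the 6 Siglec transcripts in CPM (y axis, linear) in Ly6Chi monocytes (gray), Tim-4-CD4- (blue), Tim-4-CD4+ (green), and Tim-4+CD4+ (red) macrophages (x axis). Each point is a library, and black lines are the mean and SD of 3 or 4 libraries. Cd22 steps from 4.73 CPM in monocytes to 288 CPM in Tim-4+CD4+ cells, Siglece is level across the macrophage subsets, and Siglecg is the only 1 of the 6 that is lower in both CD4+ subsets than in monocytes.

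Cd22, the inhibitory co-receptor of B cells that binds sialic acid in α2,6 linkage, measured 5.75, 4.45, and 4.01 CPM in the monocyte libraries. In Tim-4-CD4- macrophages Cd22 measured 125.1, 125.4, 117.2, and 126.6 CPM, in Tim-4-CD4+ macrophages 233.6, 268.1, 234.9, and 272.7 CPM, and in Tim-4+CD4+ macrophages 313.0, 277.4, 267.8, and 294.7 CPM. The monocyte, Tim-4-CD4-, and CD4+ libraries formed 3 ranges without overlap, while the ranges of the 2 CD4+ subsets overlapped. Cd22 was 25.9-fold higher in Tim-4-CD4- cells than in monocytes (log2 4.70 ± 0.13 SE, edgeR adjusted p = 1.91e-14), 52.9-fold higher in Tim-4-CD4+ cells (edgeR adjusted p = 2.63e-15), and 60.5-fold higher in Tim-4+CD4+ cells (edgeR adjusted p = 1.93e-15). Between the subsets, it was 2.04-fold higher in Tim-4-CD4+ than in Tim-4-CD4- cells (log2 1.03, 95% confidence interval 0.82 to 1.24, edgeR adjusted p = 5.93e-06) and 2.33-fold higher in Tim-4+CD4+ than in Tim-4-CD4- cells (log2 1.22, interval 1.01 to 1.44, edgeR adjusted p = 2.08e-07). The 2 CD4+ subsets differed by 0.19 (interval -0.02 to 0.40, edgeR adjusted p = 0.40), which did not pass the threshold.

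Because Cd22 is a B cell gene, the other B cell genes were read beside it, per kilobase of exon so that genes can be compared. The exon length of a gene was that of all its annotated exons merged, whether or not these cells use them. An antibody to the B cell form of CD45 (B220) was among those used to exclude other cells. Cd22 averaged 24.5, 50.05, and 57.2 CPM per kb in the 3 subsets. Ms4a1, which encodes CD20, averaged 0.1898, 0.1002, and 0.2023 CPM per kb in the same order, and Pax5, the factor that defines the B lineage, 0.230, 0.150, and 0.172 CPM per kb. Of the 8 B cell genes listed, only Cd79b, which encodes Igβ, came near to Cd22, with 21.95, 25.6, and 29.7 CPM per kb, and it had 6.30 CPM per kb in monocytes. The summed level of the list ran from 8.33 to 10.7 CPM in monocytes, 36.2 to 44.97 CPM in Tim-4-CD4-, 41.4 to 48.3 CPM in Tim-4-CD4+, and 36.4 to 73.7 CPM in Tim-4+CD4+ libraries. All 8 were called higher than monocytes in each subset, as were 37.3%, 39.1%, and 39.5% of all genes. Cr2 was at 0 in every monocyte library. Between the subsets, edgeR called 0 of the 8 B cell genes in any of the 3 comparisons. Of all genes, 10.1%, 23.1%, and 3.41% were called. Among the 8, the counts at an unadjusted p below 0.05 were 0, 1, and 0, as were those called by DESeq2. The comparisons are, in order, Tim-4-CD4+ relative to Tim-4-CD4- cells, Tim-4+CD4+ relative to the same cells, and the CD4+ subsets against each other. The gene nearest to a call was Cd79b in Tim-4+CD4+ relative to Tim-4-CD4- cells (edgeR adjusted p = 0.0507). An antisense gene, Gm29439, overlaps Cd22, and how HTSeq treated strand is not given in the sources used here, but Gm29439 had at most 0.129 CPM in any library.

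**Figure D2:**
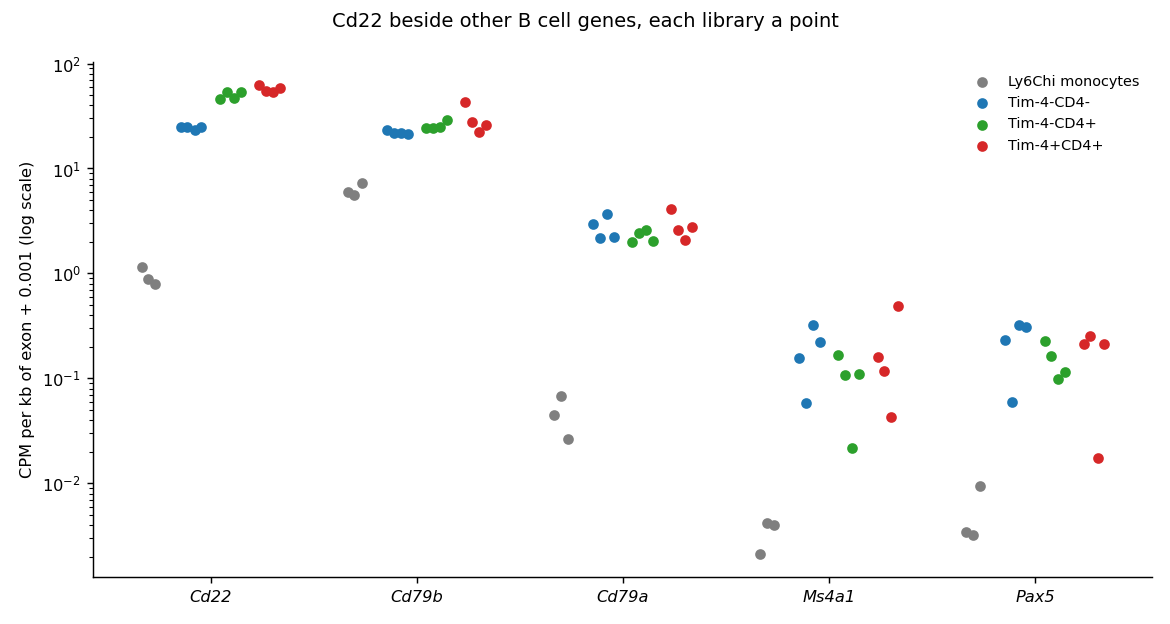
Cd22 and 4 other B cell genes (x axis) in CPM per kb of exon plus 0.001 (y axis, log scale), each point a library, colored by population. In the macrophage libraries Cd22 and Cd79b lie far above Ms4a1 and Pax5. Cd22 is the gene whose libraries separate Tim-4-CD4- from both CD4+ subsets, while those of Cd79b separate it from Tim-4-CD4+ alone.

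Siglech was low throughout but ordered. Counts in monocytes were 26, 34, and 0, or 0.184, 0.331, and 0 CPM, and a count of 0 in replicate 3 allows up to 0.0557 CPM (counting error only). The Tim-4-CD4- libraries held 2.04, 1.26, 2.44, and 2.43 CPM, the Tim-4-CD4+ libraries 4.45, 2.98, 1.93, and 3.23 CPM, and the Tim-4+CD4+ libraries 10.5, 8.07, 6.98, and 8.31 CPM. Every Tim-4+CD4+ library was above every other library, whereas the other 2 subsets overlapped. Against monocytes, Siglech was higher by log2 3.42 ± 0.52 SE, 4.05 ± 0.53, and 5.48 ± 0.55 in the 3 subsets (edgeR adjusted p = 2.3e-05, 3.56e-06, and 1.62e-07), and without monocyte replicate 2 by 4.13, 4.77, and 6.20. It was 4.16-fold higher in Tim-4+CD4+ than in Tim-4-CD4- cells (log2 2.06, interval 1.19 to 2.92, edgeR adjusted p = 0.00138) and 1.94 on the log2 scale without Tim-4+CD4+ replicate 1. Between the 2 CD4+ subsets the difference of log2 1.43 (interval 0.59 to 2.26) did not pass the threshold (edgeR adjusted p = 0.0607, and 0.000192 to 0.145 over all settings), although the libraries did not overlap, as in 9.63% of all genes. DESeq2 gave an adjusted p of 0.000192 for the same difference.

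Since Siglech is a known gene of plasmacytoid dendritic cells, 8 of their genes were read beside it. Their summed level was 124 to 150 CPM in monocytes, 204 to 222 CPM in Tim-4-CD4-, 227 to 252 CPM in Tim-4-CD4+, and 154 to 257 CPM in Tim-4+CD4+ libraries, and nearly all of it was Tcf4 and Runx2, which many cells express. Klk1, Pacsin1, and Cox6a2 each averaged under 1 CPM in every population. Klk1 was at 0 in the monocytes and reached 3.68 CPM in a Tim-4-CD4- library. Ccr9 averaged 0.208 CPM in monocytes and 2.03, 2.95, and 2.27 CPM in the subsets. For Ly6d the means were 0.0248 CPM and 2.68, 2.34, and 1.87 CPM, and for Spib 0.864 CPM and 1.58, 0.757, and 0.941 CPM. Of the 8 genes, 6 were called higher than monocytes in each subset (37.3%, 39.1%, and 39.5% of all genes). Between subsets edgeR called 0 (10.1%, 23.1%, and 3.41% of all genes), with 2, 1, and 0 at an unadjusted p below 0.05 and 0 called by DESeq2. Without Tim-4+CD4+ replicate 1, Runx2 was called higher in both CD4+ subsets than in Tim-4-CD4- cells (log2 0.36 and 0.45, edgeR adjusted p = 0.00514 and 0.00092). Their part in the level of Siglech was not tested.

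Siglecg, an inhibitory receptor of B cells and some dendritic cells, ran the other way. It held 3.26, 2.54, and 2.38 CPM in monocytes and 2.76, 1.64, 6.60, and 1.11 CPM in Tim-4-CD4- cells, a difference that was not distinguishable (log2 0.15, interval -1.10 to 1.40, edgeR adjusted p = 0.838). The Tim-4-CD4+ libraries held 0.733, 0.126, 0.230, and 0.533 CPM and the Tim-4+CD4+ libraries 0.253, 0.981, 0.338, and 0.780 CPM, all below every monocyte and every Tim-4-CD4- library. Against monocytes Siglecg fell 6.58-fold in Tim-4-CD4+ cells (log2 -2.72 ± 0.62 SE, edgeR adjusted p = 0.000943) and 4.62-fold in Tim-4+CD4+ cells (log2 -2.21 ± 0.60, edgeR adjusted p = 0.00367). It was 7.29-fold lower in Tim-4-CD4+ than in Tim-4-CD4- cells (log2 -2.87 ± 0.60, edgeR adjusted p = 0.0048) and 5.12-fold lower in Tim-4+CD4+ cells (log2 -2.36 ± 0.58, edgeR adjusted p = 0.00709). Without Tim-4-CD4- replicate 3, the highest library, these last differences were -2.15 (edgeR adjusted p = 0.0226) and -1.63 (edgeR adjusted p = 0.0409).

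That library was also the highest of its subset for 3 of the 5 listed genes of conventional dendritic cells (Flt3, Itgae, and Zbtb46), whereas Xcr1 was highest in replicate 4 and Clec9a was lowest in replicate 3, at 24.7 CPM against 26.9 to 36.2 CPM. Flt3, the growth factor receptor of dendritic cells, measured 7.57, 4.41, 17.9, and 4.76 CPM in the Tim-4-CD4- libraries, and Itgae, the integrin CD103, measured 5.09, 5.43, 24.7, and 3.21 CPM. In the 2 CD4+ subsets, Flt3 averaged 0.83 and 0.57 CPM. Of the listed B cell genes, Cd79a, Ms4a1, Pax5, Fcer2a, and Cr2 were also highest in Tim-4-CD4- replicate 3 within that subset. Cd79b, Ebf1, and Blk were highest in its replicate 1. Cd79a measured 4.31, 3.20, 5.33, and 3.26 CPM in the Tim-4-CD4- libraries, and Blk 1.11, 0.419, 0.992, and 0.854 CPM. Transcripts of the sort markers were highest in replicate 3 of this subset too. Cd4 measured 14.5, 17.1, 39.2, and 20.7 CPM in the Tim-4-CD4- libraries, and Timd4 0.566, 0.151, 2.93, and 0.802 CPM. The summed level of the 5 listed dendritic cell genes ran from 25.1 to 37.8 CPM in monocytes, 39.8 to 75.5 CPM in Tim-4-CD4-, 28.8 to 37.0 CPM in Tim-4-CD4+, and 28.5 to 43.2 CPM in Tim-4+CD4+ libraries. Of the 5, 2 were called lower in each CD4+ subset than in Tim-4-CD4- cells, where 10.1% and 23.1% of all genes were called. Monocyte genes fell along the same groups: the 5 listed summed to 7094 to 9364 CPM in monocytes, 555 to 829 CPM in Tim-4-CD4-, 75.4 to 135 CPM in Tim-4-CD4+, and 14.0 to 25.1 CPM in Tim-4+CD4+ libraries. Of these, Ccr2, the chemokine receptor of monocytes, averaged 660, 84.1, and 8.39 CPM in the subsets, and it and Plac8 were called lower in each CD4+ subset than in Tim-4-CD4- cells. The part of dendritic cell, B cell, and monocyte genes in the difference in Siglecg was not tested.

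Siglece, an inhibitory receptor with the usual motifs, had the highest mean level per kb of exon of the family in each population (in monocytes 26.6 CPM per kb, against 25.5 for Siglec1). This rank rests on annotated exon lengths of 1.849 kb for Siglece, 7.771 kb for Cd33, and 7.143 kb for Siglec1. In CPM, the means of Cd33 and Siglec1 were above that of Siglece in every population. Siglece held 54.6, 42.6, and 50.3 CPM in monocytes and 164 to 211 CPM in the 12 macrophage libraries, with subset means of 185 ± 10.7, 186 ± 6.41, and 188 ± 22.5 CPM (SD, n = 4 each). Every macrophage library was above every monocyte library, and Siglece was 3.76-fold, 3.79-fold, and 3.83-fold higher in the subsets than in monocytes (log2 1.91 to 1.94, SE 0.11, edgeR adjusted p at most 1.56e-10). Between subsets it did not pass the threshold, and all 3 intervals lay between -0.19 and 0.23 on the log2 scale, which bounds any difference between subsets at this depth. Cd33, the receptor after which the CD33-related Siglecs are named, rose in a like manner, from 100.03, 122.8, and 110.1 CPM in monocytes to 445 to 530 CPM in Tim-4-CD4-, 508 to 691 CPM in Tim-4-CD4+, and 478 to 575 CPM in Tim-4+CD4+ libraries (4.41-fold, 5.57-fold, and 4.87-fold, edgeR adjusted p at most 1.37e-10). Cd33 was 1.26-fold higher in Tim-4-CD4+ than in Tim-4-CD4- cells, just outside the threshold (log2 0.34, interval 0.11 to 0.56, edgeR adjusted p = 0.0535), with overlapping libraries, and 9 of its 25 alternatives passed (adjusted p 0.0127 to 0.169 by edgeR or DESeq2).

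Siglec1, known for its induction by type I interferon, had the smallest of the differences from monocytes that were called. It held 210.6, 106.2, and 229.0 CPM in monocytes, 269 to 359 CPM in Tim-4-CD4-, 260 to 361 CPM in Tim-4-CD4+, and 241.6, 448.2, 432.2, and 406.2 CPM in Tim-4+CD4+ libraries. All macrophage libraries were above all monocyte libraries, by 1.71-fold (edgeR adjusted p = 0.00882), 1.72-fold (edgeR adjusted p = 0.00801), and 2.10-fold (edgeR adjusted p = 0.000794). Without monocyte replicate 2, the lowest, the log2 differences fell from 0.78, 0.78, and 1.07 to 0.53, 0.54, and 0.83 and stayed past the threshold. Between subsets no difference in Siglec1 passed it: Tim-4+CD4+ was 0.29 above each of the others on the log2 scale, and 0.46 above each without its replicate 1, the lowest of that subset. Of 10 interferon-stimulated genes, 7, 7, and 6 were called lower than in monocytes in the 3 subsets (28.1%, 30.7%, and 31.3% of all genes). The lower genes included Irf7 (504 CPM in monocytes and 124 to 147 CPM in the subsets). Of the 10, 1, 2, and 1 were called higher (37.3%, 39.1%, and 39.5% of all genes). These were Isg15 in each subset (54.3 CPM in monocytes and 115, 153, and 197 CPM in the subsets) and Ifit2 in Tim-4-CD4+ cells (log2 0.49, edgeR adjusted p = 0.0479). The lowest monocyte library for Siglec1, replicate 2, was also the lowest for the summed level of the 10 genes, with 1176 CPM against 1640 and 1944 CPM. The part of the 10 genes in the level of Siglec1 was not tested.

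**Figure D3:**
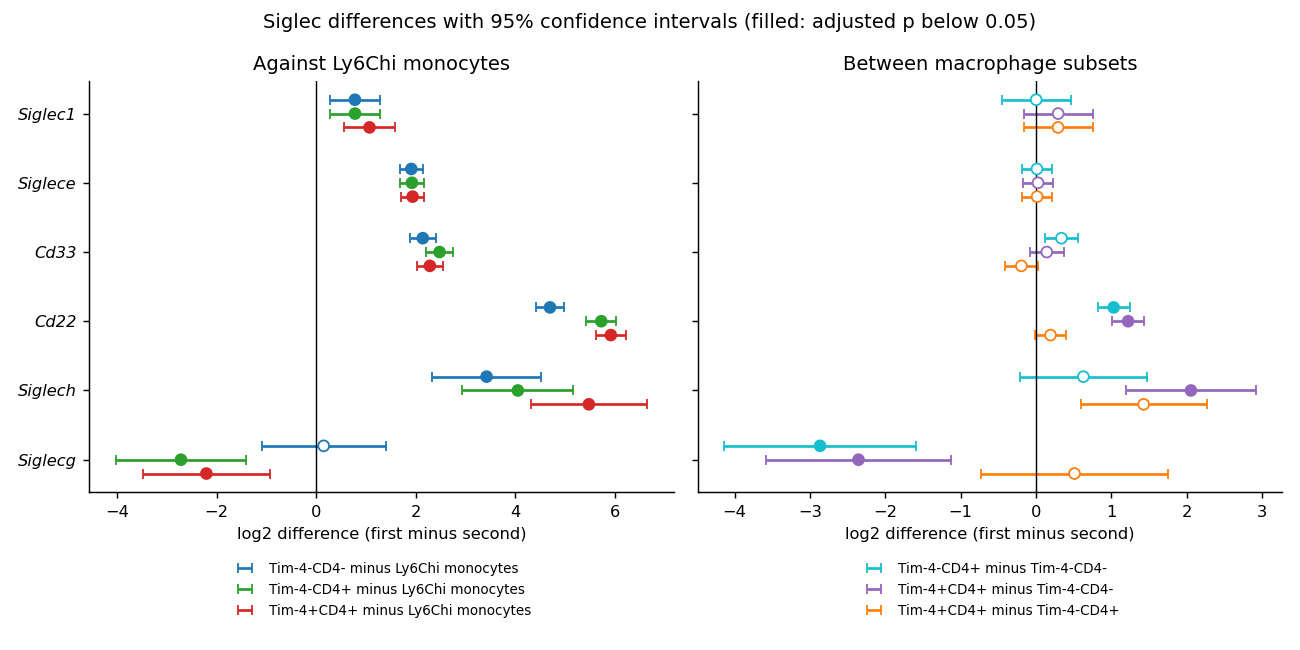
Log2 differences of the 6 Siglec genes (rows) with 95% confidence intervals from the edgeR fit, against monocytes (left, 3 subsets) and between the macrophage subsets (right). Filled points have an adjusted p below 0.05. On the right, the filled points are Cd22 and Siglecg in both comparisons with Tim-4-CD4- cells and Siglech in Tim-4+CD4+ relative to Tim-4-CD4- cells, and all 3 Siglece intervals span 0.

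Counted over the family, 2 of the 6 genes were called in Tim-4-CD4+ relative to Tim-4-CD4- cells (Cd22 up, Siglecg down), where 10.1% of all genes tested were called, and the same 2 had libraries that did not overlap, as had 19.1% of all genes. In Tim-4+CD4+ relative to Tim-4-CD4- cells, 3 of the 6 were called (Cd22 and Siglech up, Siglecg down), against 23.1% of all genes, and these 3 had libraries that did not overlap, as had 26.4% of all genes. Between the 2 CD4+ subsets, edgeR called 0 of the 6, against 3.41% of all genes, with 1 of the 6 (Siglech) at an unadjusted p below 0.05 and 1 called by DESeq2. Without Tim-4+CD4+ replicate 1, the log2 differences of Cd22 and Siglecg relative to Tim-4-CD4- cells were 1.18 and -2.09, and both stayed past the threshold. The first and second of the comparisons between subsets share the Tim-4-CD4- libraries.

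The make-up of the family differed between the populations. Adding the 6 genes, Siglecf, and Mag per kb of exon, the family summed to 68.3 ± 11.0 CPM per kb in monocytes (SD, n = 3) and to 239 ± 12.6, 283 ± 20.8, and 294 ± 13.5 CPM per kb in the subsets (SD, n = 4 each). Siglec1 made 36.4% of that sum in monocytes and 18.3%, 15.4%, and 18.1% in the subsets, while its own level rose. Cd22 went from 1.39% to 10.3%, 17.7%, and 19.5%, and Siglece had the highest mean share in all 4 populations, with 39.2%, 41.9%, 35.7%, and 34.6%. In monocytes that order rested on replicate 2, without which Siglec1 made 41.2% and Siglece 38.03%. Siglecg and Siglech made at most 1.08% in any library. All these shares depend on the annotated exon lengths.

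**Figure D4:**
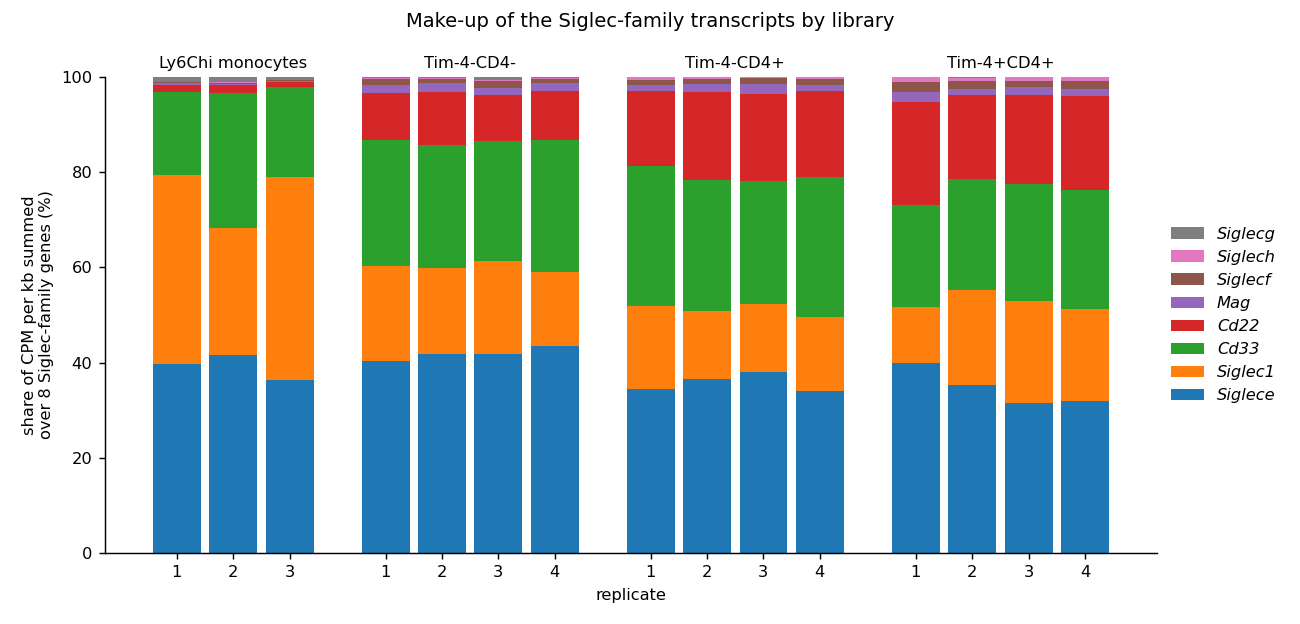
Share of each of 8 Siglec-family genes (colors) in their summed CPM per kb of exon (y axis, percent) in every library (x axis, replicates by population). Siglec1 (orange) makes 26.8% to 42.8% in monocytes and at most 21.4% in any macrophage library, and Cd22 (red) widens from Tim-4-CD4- to the CD4+ subsets.

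The family members outside the 6 were low. Siglecf, the receptor of eosinophils and alveolar macrophages, was among the markers used to exclude cells from the gut sort, and measured 0.149 to 0.538 CPM in monocytes, 4.98 to 8.93 CPM in Tim-4-CD4-, 8.67 to 10.1 CPM in Tim-4-CD4+, and 11.1 to 16.7 CPM in Tim-4+CD4+ libraries. It was 1.96-fold higher in Tim-4+CD4+ than in Tim-4-CD4- cells (log2 0.97, interval 0.49 to 1.45, edgeR adjusted p = 0.00472), and the log2 difference was 0.87 without Tim-4+CD4+ replicate 1, the highest library (edgeR adjusted p = 0.0131). The 3 eosinophil genes that were counted summed to at most 1.48 CPM in any library. Mag, the myelin glycoprotein that lies 18.8 kb from Cd22, measured 0.691 to 1.16 CPM in monocytes and 14.4 to 23.2 CPM in macrophages and had no call between subsets. Siglec15 was not analysed here.

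Of the 7 genes through which Siglecs signal, 4, 5, and 5 were called lower than in monocytes, as were 28.1%, 30.7%, and 31.3% of all genes. In each subset 0 of the 7 were called higher, against 37.3%, 39.1%, and 39.5% of all genes. Their medians were -0.52, -0.42, and -0.55 on the log2 scale, against medians of 0.08, 0.11, and 0.10 over all genes tested. Tyrobp, which encodes DAP12, averaged 1036 CPM in monocytes and 563, 569, and 627 CPM in the subsets, and Ptpn6, which encodes SHP-1, averaged 875 CPM in monocytes and 486, 501, and 531 CPM in the subsets. Between subsets, 1 of the 7 was called in 1 comparison, Tim-4+CD4+ relative to Tim-4-CD4- cells (23.1% of all genes were called). Ptpn11, which encodes SHP-2, fell from 124 CPM in Tim-4-CD4- to 95.8 CPM in Tim-4+CD4+ cells (log2 -0.37, edgeR adjusted p = 0.0162). Replicate 1 was the lowest library of that subset, at 72.1 CPM, and without it the difference was -0.25 (edgeR adjusted p = 0.0114), and Ptpn11 was also called in Tim-4-CD4+ relative to Tim-4-CD4- cells (log2 -0.19, edgeR adjusted p = 0.0478).

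Of 16 sialyltransferases tested, which make the ligands, 6, 7, and 6 were higher and 7, 7, and 8 lower than in monocytes, where 37.3%, 39.1%, and 39.5% of all genes were called higher and 28.1%, 30.7%, and 31.3% lower. In Tim-4+CD4+ relative to Tim-4-CD4- cells 2 were higher and 8 lower, against 11.3% and 11.9% of all genes (median -0.43 on the log2 scale, against 0.00 over all genes tested). In Tim-4-CD4+ relative to Tim-4-CD4- cells 1 was higher and 2 lower, where 10.1% of all genes were called. Between the CD4+ subsets 1 was higher and 1 lower in Tim-4+CD4+ cells, where 3.41% of all genes were called. St6galnac3, which adds sialic acid to N-acetylgalactosamine, rose from 1.01 ± 0.13 to 4.50 ± 1.05 to 21.0 ± 2.95 CPM (SD, n = 4 each). Its log2 differences were 2.16 for Tim-4-CD4+ relative to Tim-4-CD4- cells (edgeR adjusted p = 1.77e-05) and 2.23 between the CD4+ subsets (edgeR adjusted p = 1.1e-05). St3gal5, the synthase of the ganglioside GM3, fell from 5.70 ± 1.28 CPM in Tim-4-CD4- to 0.502 ± 0.316 and 0.347 ± 0.053 CPM in the CD4+ subsets (log2 -3.55 and -4.02). St6galnac1 and St6galnac2 had no counts in monocytes and averaged at most 0.556 CPM in any subset, at least 15.7-fold and 13.1-fold higher in Tim-4+CD4+ cells than a floor of 3 counts per monocyte library. Of the 5 genes of sialic acid synthesis tested, Cmah, which converts the acetyl to the glycolyl form, rose from 3.31 CPM in monocytes to 16.2, 17.9, and 14.3 CPM in the subsets, and Cmas, which activates sialic acid, fell from 68.0 CPM to 28.1, 27.0, and 26.6 CPM. Neu1, the lysosomal sialidase, rose from 74.9 CPM in monocytes to 96.0, 111, and 123 CPM, and was called higher in Tim-4+CD4+ than in Tim-4-CD4- cells (log2 0.36, edgeR adjusted p = 0.0118, and 0.27 without Tim-4+CD4+ replicate 1, the highest).

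The genes whose levels followed each Siglec most closely over the 12 macrophage libraries were found among 11781 genes with at least 1 CPM, by Pearson's r of log2 CPM. The libraries share their populations and sorts, and the values are a description only. For Cd22 they were Clec4n, which encodes the C-type lectin Dectin-2 (r = 0.996), Car2 (r = 0.993), and Olfml3 (r = 0.993). Clec4n averaged 9.41 CPM in monocytes and 162, 288, and 324 CPM in the subsets. For Siglech they were 2610203C22Rik (r = 0.987), Ocln (r = 0.975), and the complement gene C2 (r = 0.974), and for Cd33 they were Mgat4a (r = 0.938), 2610008E11Rik (r = 0.935), and P2ry12, the ADP receptor known from microglia (r = 0.935). For Siglec1 they were Ptch1 (r = 0.943), Arhgef11 (r = 0.919), and Heg1 (r = 0.898), for Siglece Ptpmt1 (r = 0.893), Dnpep (r = 0.891), and Slc52a2 (r = 0.889), and for Siglecg Prrc1 (r = 0.943), Gpc1 (r = 0.941), and Nomo1 (r = 0.922). With the monocytes added, r with Clec4n was 0.999 for Cd22, whereas r with Heg1 was -0.49 for Siglec1 and r with Dnpep -0.79 for Siglece, whose levels hardly varied among the macrophages.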

How the data were processed

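The deposited table holds raw counts per gene, which the authors made by trimming reads with Trimmomatic 0.36, aligning them to GRCm38.p4 with STAR, and counting uniquely mapped reads with HTSeq 0.6.1p1 against GENCODE vM11. A second set of 15 per-sample columns under the same names, with non-integer values, was not used. Of 19456 identifiers, 19421 were given symbols and coordinates from GENCODE M21, and the lowest total of a gene was 16 counts. Low genes were removed with edgeR's filterByExpr (15802 left), and libraries were scaled with TMM. One edgeR 4.0.16 quasi-likelihood fit (R 4.3.3) over the 15 libraries gave the 6 comparisons, with Benjamini-Hochberg adjustment over all genes and a threshold of 0.05, and no replicate block. Log2 CPM used a prior count of 2. The fit was tested on simulated data. Libraries of a group were separate pools of mice, and none were identical. Samples were grouped by title. Alternatives were DESeq2 1.42.0, RLE and upper-quartile scaling, other filters on low counts, the 2 populations alone, a replicate block, thinned counts, a 2-fold minimum, and leaving out each library. The named genes were the 6 Siglecs, Siglecf and Mag, at most 3 called genes per list and comparison, the 3 genes most like each Siglec, and marker genes. The members and lists were chosen with earlier results of these data known. A listed marker gene is not reported here and was left out of its list. Reads carry no molecular identifiers, so limits cover counting error only.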

Additional observations from a re-analysis of the deposited data

Results flagged for a closer look

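In groups of 4 libraries, 7 values lay far from the others of their group by Dixon's test at 95%, among 75 sets tested, and chance flags about 1 in 20. Cd22 was low in Tim-4-CD4- replicate 3, at 117 CPM against 125 to 127 CPM. Mag was high in Tim-4+CD4+ replicate 1, at 23.2 CPM against 17.6 to 18.1 CPM. The summed level of the Siglec signalling genes was high in Tim-4-CD4- replicate 2, at 3157 CPM against 2866 to 2908 CPM. In sum, the sialic acid synthesis genes were high in Tim-4-CD4- replicate 3, at 125 CPM against 109 to 111 CPM. The sialidases summed high in Tim-4+CD4+ replicate 1, at 146 CPM against 117 to 120 CPM. Neutrophil genes summed low in Tim-4-CD4+ replicate 3, at 0.0767 CPM against 0.278 to 0.297 CPM. Oligodendrocyte and Schwann cell genes summed low in Tim-4-CD4+ replicate 2, at 66.2 CPM against 73.2 to 74.5 CPM.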

How the results depend on the processing

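Over all alternatives, 873 of the log2 differences of the 6 Siglec genes kept their direction and their side of the threshold, 13 newly passed it, 2 no longer passed, and 12 reversed, all 12 among differences that were not called. The number of Siglec genes called between the CD4+ subsets went from 0 to 1 (Siglech) with DESeq2 and with only the 2 populations, and was 0 to 1 when single libraries were left out, 1 without monocyte replicate 2 (edgeR adjusted p = 0.0382) or 3 (edgeR adjusted p = 0.0051). Cd33 in Tim-4-CD4+ relative to Tim-4-CD4- cells passed in 9 of 25 alternatives, 0.28 to 0.42 on the log2 scale with a library left out. Siglec1 lost its calls of 0.78 against monocytes in both Tim-4- subsets where a 2-fold change was required, by construction. With a library left out, log2 differences that reversed ran from -0.55 to 0.43 for Siglecg in Tim-4-CD4- cells against monocytes (negative without Tim-4-CD4- replicate 3), from -0.074 to 0.079 for Siglec1 and from -0.021 to 0.047 for Siglece in Tim-4-CD4+ relative to Tim-4-CD4- cells, and for Siglece from -0.029 to 0.0998 in Tim-4+CD4+ relative to Tim-4-CD4- cells and from -0.042 to 0.086 between the CD4+ subsets (negative without Tim-4+CD4+ replicate 1 or 2). Siglec1 in Tim-4-CD4+ relative to Tim-4-CD4- cells was -0.0043 with the replicate block by description numbers. The cause was not tested. By the replicate numbers of titles and of descriptions, correlations of deviations ran from -0.12 to 0.13 and from -0.089 to 0.16 over 12 pairs. Of these, 2 and 4 were above 0.1. Whether the subsets came from the same pools of mice is not stated in the sources used here. Only these numberings were tried, so the correlations cannot exclude a pairing. With a replicate block 71 of 72 differences kept direction and side. Over all genes, DESeq2 called 917 between the CD4+ subsets against 539, and a 2-fold minimum left 6034, 6681, 6849, 483, 1336, and 277 of 10341, 11027, 11196, 1589, 3656, and 539 in the 6 comparisons. Over 15 libraries, r with the most similar gene was 0.66 for Siglec1 and 0.69 for Siglecg. Low depth on Siglecg, with 5 to 114 counts per library in the CD4+ subsets, limits its value. Leaving out Tim-4+CD4+ replicate 1 for genes outside the family, and monocyte replicate 2 for the family shares, was chosen after seeing the data.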
